A study of Mus musculus with 20 samples.

Results

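The step from the 4-cell to the early 8-cell stage was followed in mouse embryos that had received siRNA against P300, the product of Ep300. The comparison takes the 2 early 8-cell and the 2 4-cell libraries labelled P300 siRNA, chosen by label alone, which makes 4 of the 20 libraries of the series. P300 siRNA embryos carry the label P300 knockdown, and the control embryos set beside them, 2 libraries at the early 8-cell and 2 at the 4-cell stage, are labelled WT. All were cultured from the zygote, and each library was made from lysed whole embryos with the Smart-seq2 protocol. The number of embryos in a library, the siRNA itself and the treatment of the controls are not given in the sources used here, and nothing in the labels says that libraries of a group came from separate collections, so p-values measure the spread between these libraries, which may be technical.

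The protein p300 is a lysine acetyltransferase that also transfers crotonyl groups to histones, and it acts as a coactivator at promoters and enhancers. In the mouse embryo the genome is activated by the 2-cell stage and RNA stored by the oocyte is degraded while embryonic transcription takes over. At the 8-cell stage the blastomeres compact, become polarised and start to use the Hippo pathway, which later separates trophectoderm from inner cell mass.

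Some rows and libraries of the deposited tables stood apart, and these come before the results. In the 8-cell columns and in the late 2-cell and 4-cell columns, values were displaced along runs of rows with related symbols, so that many of these rows do not hold the same transcript in both column sets, in siRNA and control embryos alike. The row named H2az1, a histone variant gene, held 0.348 and 0 CPM (counts per mega-count of the library, scaled with TMM factors) in siRNA early 8-cell libraries, against 2024 and 1728 CPM in siRNA 4-cell libraries. The row named H2-T3, a non-classical MHC gene, held 1862 and 1652 CPM in the early 8-cell libraries, against 0 and 0.305 CPM in the 4-cell libraries. The ratio of counts to FPKM reflects the transcript length behind a row, here on a log2 scale relative to the median row of each library. This relative length was -1.47 for H2az1 in the late 2-cell and 4-cell columns and -1.38 for H2-T3 in the 8-cell columns. Likewise Apoo-ps held 114 and 90.5 CPM in the early 8-cell libraries where Apool held 0 and 0 CPM, and Apool held 109 and 88.3 CPM in the 4-cell libraries where Apoo-ps held 0 and 0 CPM. Of the rows whose place depends on how hyphens are sorted, 63 had a measurable length in both column sets, and the length was the same in 4 of them, or 6.35%. Among the other rows it was the same in 12501 of 12621, or 99% (within 0.1 on the log2 scale). The 812 rows of the first kind and 16 further rows with a length difference over 0.3 were left out, 828 of 25208 rows in all.

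**Figure D1:**
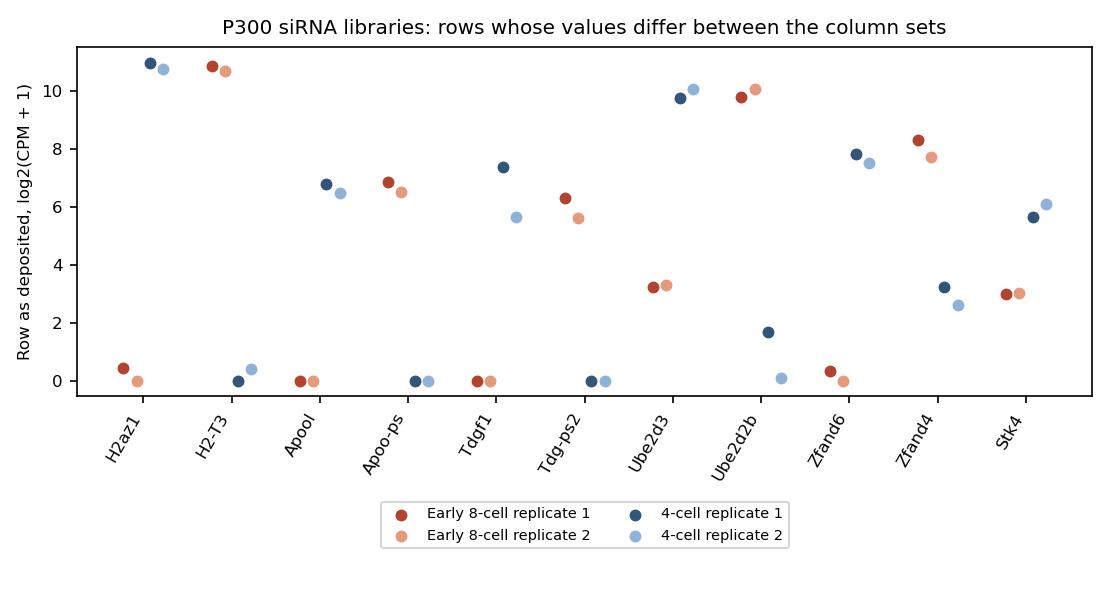
Level of 11 rows as deposited, on the log2(CPM + 1) axis, in each of the 2 early 8-cell (red) and 2 4-cell (blue) P300 siRNA libraries. High and low values sit under different symbols at the 2 stages, as for H2az1 (0.348 and 0 CPM at the early 8-cell stage) and H2-T3 (1862 and 1652 CPM).

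This choice decides the outcome. With the rows as deposited, edgeR's quasi-likelihood test called 82 of 16603 genes between the stages in siRNA embryos at a Benjamini-Hochberg adjusted p under 0.05, or 0.494%, 45 of them higher and 37 lower at the early 8-cell stage. All 82 lay in the rows left out, of which 225 had been tested, and 0 lay elsewhere. The rows H2az1 (log2 fold change -13.15), Tdgf1 (-13.51), Zfand6 (-10.36) and Ube2d3 (-6.82) are among them and are not evidence of a change in those genes. In control embryos the same fit called 187 genes (1.13%), 97 of them in the rows left out. Because all 8-cell columns stand on one side and all late 2-cell and 4-cell columns on the other, the stage and the column set cannot be told apart.

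The replicate 2 libraries of the 2 siRNA stages were more alike than any other pair. Early 8-cell replicate 2 and 4-cell replicate 2 gave a chi-square per degree of freedom of 2.88 over 12258 genes, where the next lowest of the 190 pairs of libraries gave 6.10 and pairs of the same group gave 6.10 to 74.2. The SD of their log2 ratio over 2143 genes at 100 CPM or more was 0.0985, and 99.7% of these genes lay within 0.3, against an SD of 0.167 to 0.604 in pairs of the same group. Their log2 CPM correlated at 0.996. The corresponding correlation was 0.971 between early 8-cell replicate 1 and 4-cell replicate 1, 0.973 between the 2 early 8-cell libraries and 0.968 between the 2 4-cell libraries. The pair differed by more than the sampling noise of counts, which cannot tell separate samples from 2 libraries of the same one. Both were kept as labelled, and what brought them together was not tested. Results are therefore also given from the replicate 1 libraries alone.

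**Figure D2:**
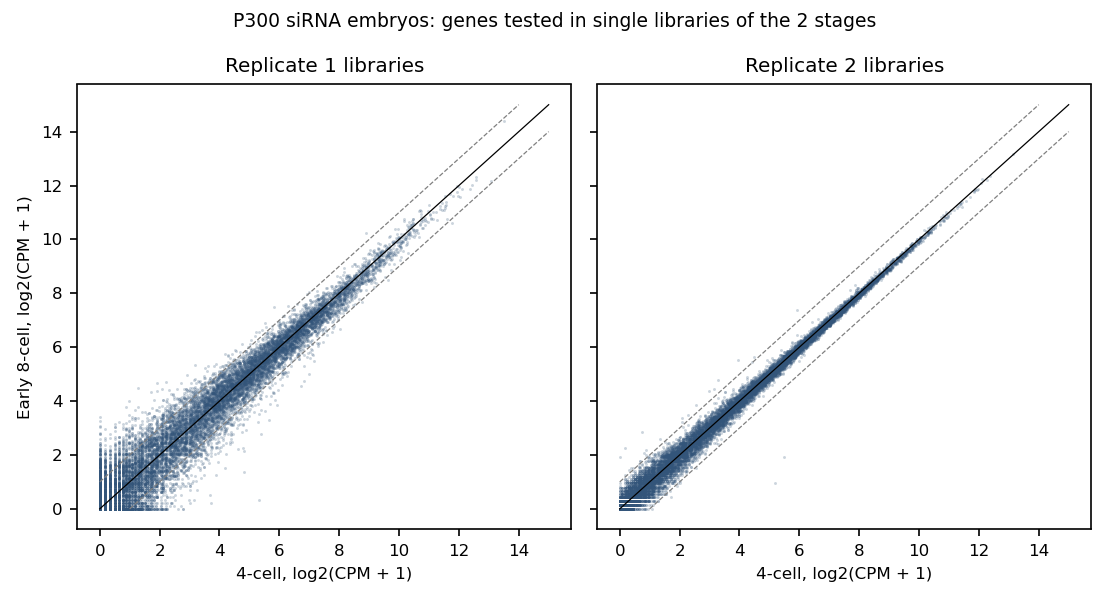
Early 8-cell level (vertical axis) against 4-cell level (horizontal axis) in P300 siRNA embryos, both log2(CPM + 1), with 1 point per gene tested, for the replicate 1 libraries (left) and the replicate 2 libraries (right). Solid lines mark equal levels and dashed lines a difference of 1 log2 unit; the replicate 1 points spread widely, and the replicate 2 points hug the diagonal.

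No gene passed the test between the stages in siRNA embryos once these rows were left out. In the edgeR quasi-likelihood test 0 of 16378 genes (0%) had an adjusted p under 0.05, the lowest adjusted p was 1, and 537 genes (3.28%) had an unadjusted p under 0.05. DESeq2 and limma on log2(FPKM + 1) also called 0. Of the 7509 genes at 10 CPM or more at either stage, 99.3% had a fitted difference within 1 log2 unit of 0, and 53 lay beyond it. The median 95% interval reached 0.604 log2 units to either side, and for 5585 of these genes (74.4%) the whole interval lay within 1 log2 unit. Total counts were 10.99 and 8.20 M (M, mega) in early 8-cell and 7.17 and 15.8 M in 4-cell siRNA libraries. Without a filter on low counts edgeR called 52 genes, 28 higher and 24 lower, all of which had also been tested with the filter, at unadjusted p values of 0.00161 to 0.119. In 21 of these 52 both libraries of 1 stage were at 0, and only 4 were at 10 CPM or more with the libraries of the stages apart.

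The fit averages 2 unlike pairs. Between the replicate 1 libraries, 427 of the 7509 genes differed by 1 log2(CPM + 1) unit or more, 230 higher and 197 lower at the early 8-cell stage. Between the replicate 2 libraries 10 did, 8 higher and 2 lower. Of the 427 genes, 4-cell replicate 2 was nearer to early 8-cell replicate 1 than to 4-cell replicate 1 in 292, and early 8-cell replicate 2 was so in 282. When the replicate 1 libraries alone stood for the siRNA stages, edgeR called 2 of 17249 genes, Fbxw18 and the gene model Gm9376, both lower at the early 8-cell stage and both named after their values were seen. Fbxw18, an F-box gene of the oocyte-expressed Fbxw cluster, had 0.175 and 5.31 CPM in early 8-cell libraries, against 12.2 and 4.90 CPM in 4-cell libraries. Gm9376 had 0.263 and 34.2 CPM, against 38.9 and 35.7 CPM, so that 1 early 8-cell library carries its difference. With early 8-cell replicate 2 alone left out the test called 3 genes, Gm9376, Nav1 and Tent5c, and with 4-cell replicate 2 alone left out it called Pdpn.

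Ep300 was as low at the early 8-cell stage as at the 4-cell stage. It had 11.8 and 16.5 CPM in siRNA early 8-cell libraries, against 11.5 and 19.24 CPM in siRNA 4-cell libraries, a log2 fold change of -0.14 (SE 0.37, adjusted p = 1). The 2 stages overlap. Control embryos had 41.8 and 83.3 CPM at the early 8-cell and 48.7 and 89.1 CPM at the 4-cell stage, also a log2 fold change of -0.14, and no siRNA library reached the lowest of these. Across all stages the siRNA libraries held 22.7 and 30.1 CPM at the late 2-cell stage and 16.3 and 13.3 CPM at the late 8-cell stage, with the 2 intermediate stages between 11.5 and 19.24 CPM. Control libraries held 86.6 and 84.4 CPM at the late 2-cell stage. At the late 8-cell stage they held 22.2 and 15.3 CPM, which overlaps the siRNA values.

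Genes that mark the embryo were present at both stages. Dppa3, a maternal and germ line chromatin factor, had 4701 and 4695 CPM at the early 8-cell stage, against 6031 and 4918 CPM at the 4-cell stage (log2 fold change -0.22, 95% interval -0.55 to 0.11). At the late 2-cell stage siRNA libraries held less of it, 2035 and 2110 CPM, though it is in the maternal list below. Pou5f1, which encodes the pluripotency factor Oct4, had 32.3 and 10.97 CPM, against 22.7 and 9.87 CPM. Here the replicate 1 library was the higher one at both stages. Krt18, a keratin of the trophectoderm, had 25.9 and 12.9 CPM, against 28.3 and 11.8 CPM. Cdh1, the E-cadherin of compaction, had 28.7 and 23.6 CPM, against 29.0 and 23.2 CPM. Zp3, an egg coat gene, had 26.1 and 36.8 CPM, against 26.9 and 37.7 CPM. For all 4 of these the ranges of the stages overlapped and the fitted difference was 0.45 log2 units or less.

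The list of maternal oocyte transcripts had one of the more negative list medians, and the difference lay in the replicate 1 libraries. Of the 54 maternal transcripts tested 0 passed in either direction (0% of all genes did), with a median log2 fold change of -0.28 beside 0.00 over all genes tested. In control embryos the median of the 54 was more negative, at -0.51. By edgeR's test 16 of the 54 had an unadjusted p under 0.05 in control and 5 in siRNA embryos, where 12.3% and 3.28% of all genes did. Both siRNA early 8-cell libraries lay below both siRNA 4-cell libraries in 9 of the 54 and above in 3, where 10.2% and 9.18% of all genes did so. Among the 22 members at 10 CPM or more the median difference was -0.34 log2 units in the fit, and -0.33 in control embryos. It was -0.73 between the siRNA replicate 1 libraries, with 18 of 22 lower and 7 by 1 unit or more. Between the siRNA replicate 2 libraries it was -0.01, with 0 of 22 beyond 1 unit. Over all 7509 genes at that level the replicate 1 median was -0.0008. In 15 of the 22 the highest of the 4 siRNA libraries was 4-cell replicate 1, a count not taken over all genes. A high 4-cell replicate 1 value can itself bring a member to 10 CPM, so the selection can raise these counts. The median level of the 22 on the log2(CPM + 1) scale was 4.27 and 4.60 at the early 8-cell stage, against 4.95 and 4.73 at the 4-cell stage. Larger steps flank this one in siRNA embryos, with 8.48 and 8.57 at the late 2-cell stage and 3.37 and 3.60 at the late 8-cell stage. In control embryos the same median was 8.60 and 8.64 at the late 2-cell, 4.94 and 5.06 at the 4-cell, 4.97 and 4.50 at the early 8-cell and 2.51 and 2.65 at the late 8-cell stage.

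Single maternal genes show how the libraries lie. Fbxw15, another F-box gene of that cluster, had 1.84 and 3.93 CPM at the early 8-cell stage, against 17.1 and 4.84 CPM at the 4-cell stage (log2 fold change -1.92, SE 0.53, adjusted p = 1). Gdf9, an oocyte growth factor, had 9.01 and 7.04 CPM, against 22.4 and 8.40 CPM. Nlrp9c, an oocyte NLR gene, had 9.10 and 9.58 CPM, against 24.8 and 9.62 CPM. The stages do not overlap in Fbxw15 and Nlrp9c and do in Gdf9, and in all 3 the 4-cell replicate 2 library sits near the early 8-cell libraries. Omt2b, an oocyte-expressed gene, had 44.0 and 91.3 CPM, against 142 and 80.5 CPM. Oosp1, which encodes an oocyte-secreted protein, had 3.68 and 3.81 CPM, against 23.7 and 2.27 CPM. Uchl1, a ubiquitin hydrolase, ran the other way in the replicate 1 libraries, with 107 and 55.3 CPM, against 46.2 and 59.4 CPM. Its control embryos had 7.83 and 2.07 CPM at the early 8-cell and 6.45 and 7.99 CPM at the 4-cell stage.

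**Figure D3:**
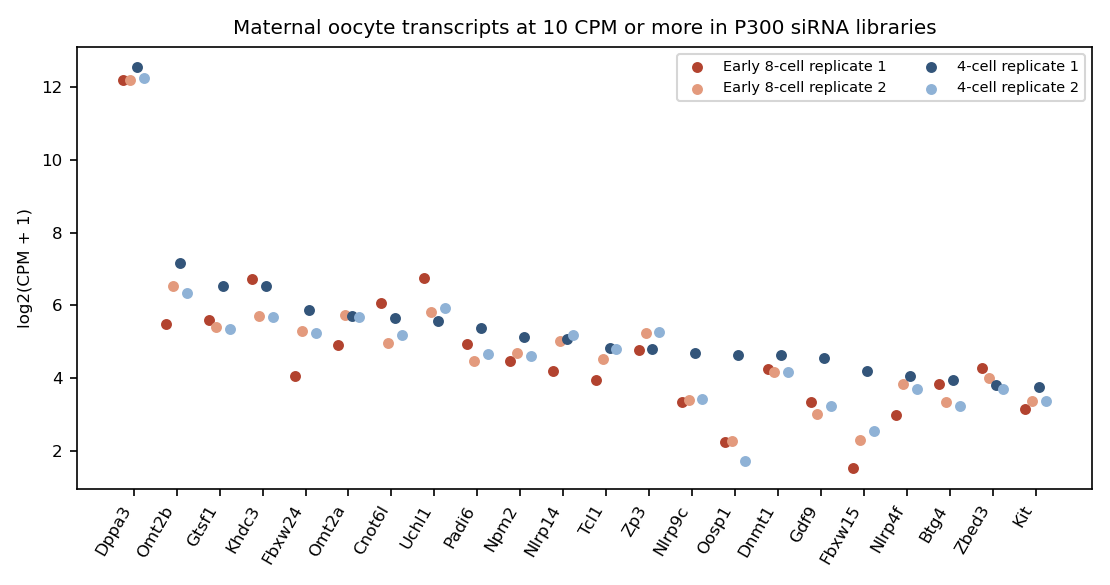
Level of the 22 maternal oocyte transcripts at 10 CPM or more in each of the 2 early 8-cell (red) and 2 4-cell (blue) P300 siRNA libraries, on the log2(CPM + 1) axis, ordered by 4-cell replicate 1. The 4-cell replicate 1 point is the highest of the 4 in 15 genes, while the 2 replicate 2 points lie close together. A high 4-cell replicate 1 value can itself bring a gene to 10 CPM.

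Genes of the first lineages and of genome activation had no called member either (background 0%). Of 38 2-cell genome activation genes tested 0 passed and the median log2 fold change was 0.04 in siRNA and -0.61 in control embryos, or -0.02 and -0.27 over the 12 members at 10 CPM or more. Obox6, a homeobox gene of the Obox family, had 2182 and 1794 CPM, against 2871 and 1912 CPM. Of 33 inner cell mass and pluripotency genes 0 passed, with a median of -0.17. Fbxo15, an F-box gene of pluripotent cells, had 2116 and 2315 CPM, against 1987 and 2439 CPM. Of 30 trophectoderm genes 0 passed, with a median of -0.20 in siRNA and 0.62 in control embryos, or -0.07 and 0.65 over the 10 members at 10 CPM or more. Sfn, a 14-3-3 protein gene of epithelia, had 237 and 165 CPM, against 338 and 145 CPM, and its controls had 512 and 497 CPM, against 455 and 296 CPM. Of 21 primitive endoderm genes 0 passed, with a median of -0.09, and the 6 members at 10 CPM or more had -0.58 in the fit, -0.93 between the replicate 1 and 0.00 between the replicate 2 libraries. Apoe, which encodes an apolipoprotein, had 48.0 and 37.3 CPM, against 35.6 and 40.8 CPM.

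Genes of compaction and blastocoel formation had no called member. Of 27 Hippo pathway genes 0 passed, with a median of 0.08, and Taok1, a kinase upstream of the pathway, had 258 and 211 CPM, against 332 and 215 CPM. Of 41 polarity, adhesion and junction genes 0 passed, with a median of 0.04 and with 9 genes above and 3 below in both libraries, where 9.18% and 10.2% of all genes were. Cdc42, a small GTPase of cell polarity, had 455 and 453 CPM, against 429 and 481 CPM. Of 18 water and ion transport genes 0 passed, with a median of 0.00. Atp1b3, a subunit of the sodium pump that drives fluid into the blastocoel, had 511 and 430 CPM, against 342 and 481 CPM. Of 27 FGF, ERK and immediate early genes 0 passed, with a median of 0.06 in siRNA and 0.64 in control embryos, and of -0.03 in siRNA and -0.01 in control embryos over the 8 members at 10 CPM or more. Sos1, which activates Ras below receptors, had 87.9 and 94.0 CPM, against 110 and 102 CPM.

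The lists of growth and cell division had no called member. Cytosolic ribosomal protein genes (84 tested), ribosome biogenesis genes (95), mitochondrial ribosomal protein genes (78), proteasome genes (49) and translation initiation factor genes (47) had 0 called members and medians of -0.03, 0.04, -0.07, -0.08 and -0.01. Rpl41, a ribosomal protein gene, had 3946 and 4823 CPM, against 4075 and 4426 CPM. Npm1, a nucleolar chaperone gene, had 3435 and 3464 CPM, against 3875 and 3694 CPM. Mrpl22, a mitochondrial ribosome gene, had 463 and 350 CPM, against 620 and 348 CPM. Psma7, a proteasome core gene, had 1253 and 1167 CPM, against 1452 and 1169 CPM, and Eif5, a start-site selection factor, had 2659 and 2759 CPM, against 3064 and 3011 CPM. DNA replication genes (57 tested) and mitosis and spindle genes (42) had 0 called members and medians of 0.01 and -0.04. Rrm2, the small subunit of ribonucleotide reductase, had 1484 and 946 CPM, against 1237 and 1032 CPM, and Ccnb1, cyclin B1, had 3134 and 3576 CPM, against 3566 and 3660 CPM.

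Metabolic lists likewise had 0 called members. The 25 glycolysis genes had a median of 0.14 in the fit, and the 16 at 10 CPM or more had 0.33 between the replicate 1 libraries and 0.00 between the replicate 2 libraries. Aldoa, an aldolase gene, had 476 and 382 CPM, against 481 and 374 CPM. The 84 respiratory chain genes had a median of -0.07, and of the 79 at 10 CPM or more 18 were higher in early 8-cell than in 4-cell replicate 1, as were 3749 of all 7509 genes at that level. The median over the 79 was -0.20 between the replicate 1 and 0.04 between the replicate 2 libraries. Atp5b, a subunit of ATP synthase, had 1651 and 1258 CPM, against 1158 and 1329 CPM. The 33 cholesterol and fatty acid synthesis genes had a median of -0.01, and Fdps, a farnesyl diphosphate synthase, had 331 and 294 CPM, against 602 and 293 CPM. The 20 amino acid transporter genes had a median of -0.05, and Slc1a1, a glutamate transporter, had 163 and 87.4 CPM, against 164 and 99.8 CPM. The 55 lysosome and autophagy genes had a median of -0.01, and Map1lc3b, which marks autophagosomes, had 4152 and 3710 CPM, against 5566 and 3764 CPM.

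Stress and defence lists had 0 called members as well. The 33 p53 targets had a median of -0.02 in siRNA and -0.32 in control embryos, or -0.03 and -0.41 over the 27 members at 10 CPM or more, and Tigar, a p53-induced phosphatase, had 374 and 426 CPM, against 372 and 477 CPM. The 38 unfolded protein and integrated stress response genes had a median of 0.07, and Dnajb9, a chaperone of the endoplasmic reticulum, had 1188 and 1148 CPM, against 979 and 1228 CPM. Heat shock proteins and chaperonins (28) had a median of -0.03, and Hsp90ab1 had 4002 and 3696 CPM, against 3915 and 3727 CPM. The 44 oxidative stress, glutathione and metallothionein genes had a median of 0.01, and Ftl1, the ferritin light chain, had 1590 and 1897 CPM, against 1998 and 1788 CPM. The 26 interferon response and innate sensing genes had a median of -0.03, while the 7 at 10 CPM or more had -0.46 in the fit, -0.62 between the replicate 1 libraries, 0 of 7 higher, and 0.04 between the replicate 2 libraries. Of all 7509 genes at that level, 3749 were higher in early 8-cell than in 4-cell replicate 1. A high 4-cell replicate 1 value can itself bring a member to 10 CPM. Ifitm2, an antiviral membrane protein gene, had 105 and 85.1 CPM, against 183 and 83.0 CPM.

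Chromatin lists, to which the siRNA target belongs, had 0 called members. The 45 lysine acyltransferases, deacylases and acyl readers had a median of 0.07, with 8 above and 4 below in both libraries beside 9.18% and 10.2% of all genes, and Hat1, a histone acetyltransferase, had 417 and 476 CPM, against 562 and 509 CPM. Here the stages do not overlap, and the log2 fold change was -0.26 (95% interval -0.69 to 0.17). The 45 histone and DNA methylation genes had a median of 0.09, and Setd2, an H3 lysine methyltransferase, had 318 and 224 CPM, against 310 and 235 CPM. The 57 chromatin remodelling and Mediator genes had a median of -0.02, and Med10, a Mediator subunit, had 453 and 622 CPM, against 439 and 649 CPM. Of 69 histone genes taken by their name pattern, most of them replication-dependent, 28 were among the rows left out and 19 were below the filter, and the 22 tested had a median of 0.28, or -0.02 over the 3 at 10 CPM or more. H1f0, a linker histone made outside replication that the pattern also takes in, had 36.4 and 33.7 CPM, against 38.9 and 33.0 CPM. The 52 germline and X-linked cancer-testis genes had a median of 0.00, and Tex19.1, a germ line gene, had 441 and 311 CPM, against 282 and 331 CPM. The 27 imprinted genes had a median of 0.00, and Impact, which encodes a translation regulator, had 333 and 634 CPM, against 534 and 620 CPM.

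**Figure D4:**
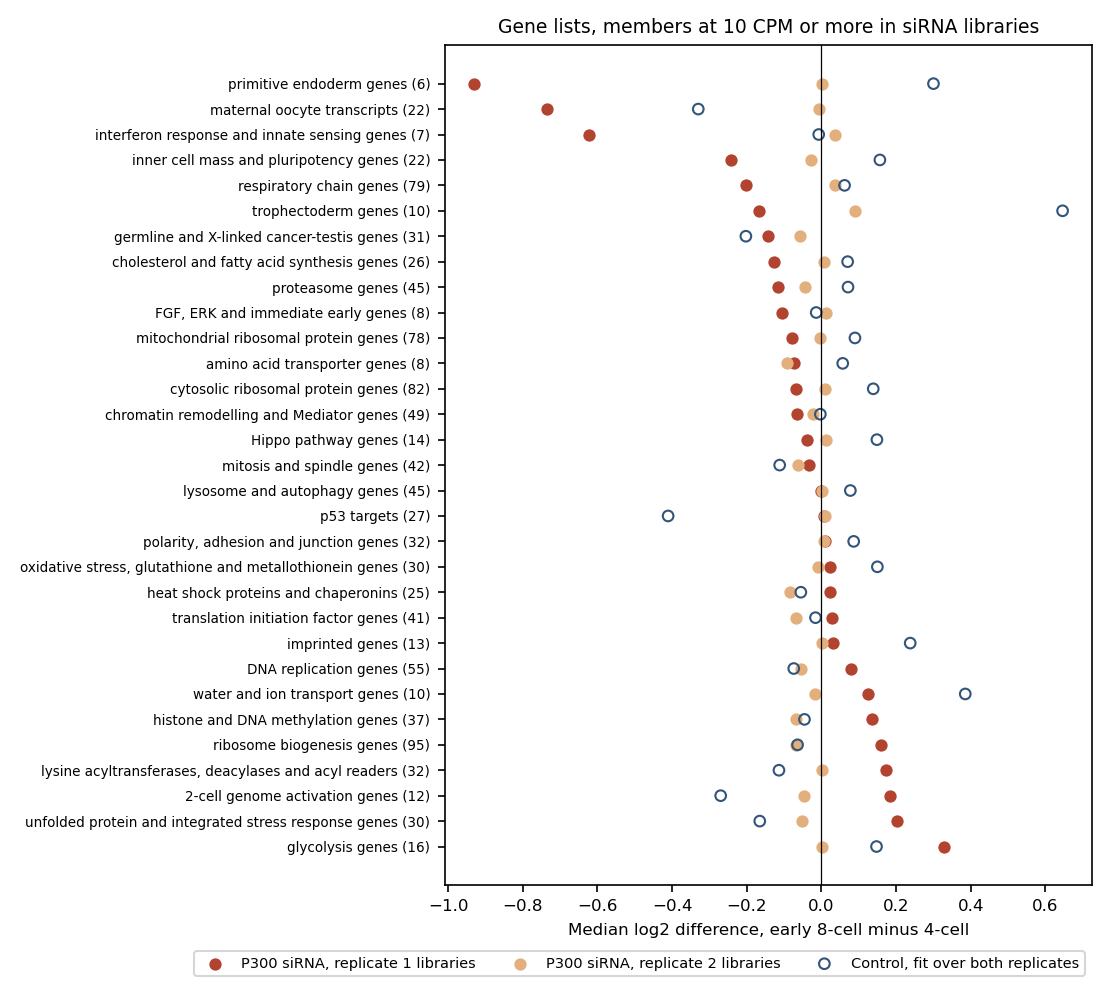
Median log2 difference, early 8-cell minus 4-cell, of the members of each gene list at 10 CPM or more in siRNA libraries (number of members in brackets), between the replicate 1 and between the replicate 2 P300 siRNA libraries, with the fitted value for the same genes in control embryos as open circles. The replicate 2 medians stay near 0, and the replicate 1 medians run from -0.93 for primitive endoderm genes to 0.33 for glycolysis genes. A high value in 1 library can itself bring a member to 10 CPM.

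The genes with the largest separated differences were named after their values were seen, since the rule for called genes named none. At 10 CPM or more, with the libraries of the stages apart and a fitted difference of 1 log2 unit or more, there were 20 genes, 14 lower and 6 higher at the early 8-cell stage, with unadjusted p values of 0.00202 to 0.219 and adjusted p values of 1 by edgeR's test. In 14 of the 14 lower genes the highest library was 4-cell replicate 1, and in 5 of the 6 higher genes it was early 8-cell replicate 1. The selection itself sets the stage of the highest library. With only 10 genes at 1 unit or more between the replicate 2 libraries, it also largely sets the replicate. Rgn, a calcium-binding gluconolactonase, had 31.5 and 32.7 CPM at the early 8-cell stage, against 125 and 35.7 CPM at the 4-cell stage. Ell3, an elongation factor, had 22.8 and 39.6 CPM, against 104 and 40.6 CPM. Rgcc, a cell cycle regulator, had 5.95 and 11.2 CPM, against 41.0 and 11.3 CPM. In these genes 3 libraries lie together and 4-cell replicate 1 alone is high.

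Among the 6 higher genes, Hes6, a bHLH gene of the Hes family, had 39.1 and 12.9 CPM, against 8.00 and 10.7 CPM, and control libraries held 0.495 and 1.71 CPM at the early 8-cell and 1.04 and 0.323 CPM at the 4-cell stage. Cdkn1c, an imprinted inhibitor of cyclin-dependent kinases, had 16.015 and 5.31 CPM, against 3.79 and 3.799 CPM. Slc25a1, the mitochondrial citrate carrier, had 15.4 and 6.004 CPM, against 3.37 and 5.45 CPM. Gabarap, an autophagosome protein gene, was the one carried by replicate 2, with 62.5 and 165 CPM, against 52.8 and 59.6 CPM (log2 fold change 1.02, SE 0.33), and its controls had 90.4 and 74.6 CPM, against 80.5 and 87.7 CPM.

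The 10 genes that parted the replicate 2 libraries include Gabarap. Zfp626, a zinc finger gene, had 4.90 and 2.77 CPM at the early 8-cell stage, against 4.35 and 43.9 CPM at the 4-cell stage, so that 4-cell replicate 2 alone was high. Lcmt2 had 18.99 and 48.4 CPM, against 54.3 and 21.3 CPM. Lepr, the leptin receptor gene, had 7.70 and 26.2 CPM, against 26.7 and 8.82 CPM, and Cyp2e1, a cytochrome P450 gene, had 3.76 and 13.51 CPM, against 26.5 and 4.90 CPM. In these 3 genes early 8-cell replicate 2 and 4-cell replicate 1 were the high libraries, and the stages overlap.

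Control embryos, which share no library with the siRNA embryos, had calls at the same step. By chi-square per degree of freedom, at 74.2, the 2 control 4-cell libraries were the least alike of the same-group pairs. Their log2 CPM correlated at 0.964, against 0.979 between control 4-cell replicate 1 and control early 8-cell replicate 1. The 2 control early 8-cell libraries correlated at 0.976, and control 4-cell replicate 2 correlated with them at 0.964 and 0.963. What set the control 4-cell libraries apart was not tested. In the fit over all 20 libraries 32 of 16378 genes (0.195%) passed, 20 higher and 12 lower at the early 8-cell stage; 0 passed when the 4 control libraries were fitted on their own and 5 with limma on log2(FPKM + 1). In the first fit 2012 genes (12.3%) had an unadjusted p under 0.05. The siRNA step had a p under 0.05 for 2 of these 32 genes and the sign of the control step for 18. For 32 of the 32 the control fold change lay outside the 95% interval of the siRNA step. Picking genes on large control steps favours this, and that interval leaves out the error of the control step. In the test of the difference between the steps, however, 0 of 16378 genes passed (0%), at a lowest adjusted p of 0.0948 by edgeR, with 1237 (7.55%) at an unadjusted p under 0.05, and DESeq2 called 34. The 32 genes were picked on the control libraries that also enter this difference. Without control 4-cell replicate 1 the controls had 785 calls and the difference 191, without control 4-cell replicate 2 the controls had 2, and without control early 8-cell replicate 1 they had 19 and the difference 1. The difference had 21 calls without siRNA 4-cell replicate 2 and 11 without siRNA early 8-cell replicate 2.

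Id3, an inhibitor of bHLH factors and a target of BMP signalling, had 31.7 and 17.3 CPM in siRNA early 8-cell libraries, against 22.03 and 14.52 CPM in siRNA 4-cell libraries (log2 fold change 0.44, 95% interval -0.18 to 1.06). In control embryos it rose to 239 and 332 CPM at the early 8-cell stage, against 57.6 and 68.7 CPM at the 4-cell stage (log2 fold change 2.18, adjusted p = 0.011), and the difference of the steps was -1.73 (adjusted p = 0.29). Hpdl, a mitochondrial dioxygenase-like gene, had 28.7 and 30.6 CPM, against 28.5 and 29.4 CPM, in siRNA embryos. In control embryos it rose to 123 and 114 CPM, against 58.8 and 52.6 CPM. Ckb, brain creatine kinase, had 170 and 157 CPM, against 123 and 147 CPM, in siRNA embryos, where the stages do not overlap, and in control embryos it rose to 233 and 244 CPM, against 122 and 94.2 CPM. Pqlc3 had 8.84 and 10.05 CPM, against 12.5 and 11.03 CPM, in siRNA embryos, and in control embryos it rose to 24.3 and 33.6 CPM, against 11.2 and 6.88 CPM.

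In a second set of the control-called genes the siRNA libraries lay above the controls at both stages, except in Cfap300 at the 4-cell stage. All of these genes reached 10 CPM as the mean of a group, but Stat6, Hmox1, Gchfr and Sohlh2 did so only in siRNA embryos. The minimum of 10 CPM can therefore itself select high siRNA values. Stat6, a transcription factor of cytokine signalling, had 12.1 and 17.8 CPM in siRNA early 8-cell and 13.05 and 16.8 CPM in siRNA 4-cell libraries, where controls had 0.693 and 1.98 CPM, against 0 and 0 CPM. Hmox1, heme oxygenase, had 25.9 and 26.9 CPM, against 22.2 and 25.0 CPM, in siRNA embryos, and 11.7 and 6.31 CPM, against 2.19 and 0.323 CPM, in controls. Gchfr, a regulator of GTP cyclohydrolase, had 13.48 and 13.7 CPM, against 10.7 and 14.52 CPM, in siRNA embryos, and 5.84 and 2.80 CPM, against 0.312 and 0.046 CPM, in controls. Of the genes that fell in controls, Cfap300, a cilia gene, had 13.7 and 21.2 CPM, against 17.5 and 25.9 CPM, in siRNA embryos, and 6.24 and 3.79 CPM, against 11.96 and 19.6 CPM, in controls. Sohlh2, a germ cell bHLH gene, had 27.7 and 8.54 CPM, against 11.8 and 9.81 CPM, in siRNA embryos, and 0.099 and 0 CPM, against 1.77 and 1.62 CPM, in controls.

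**Figure D5:**
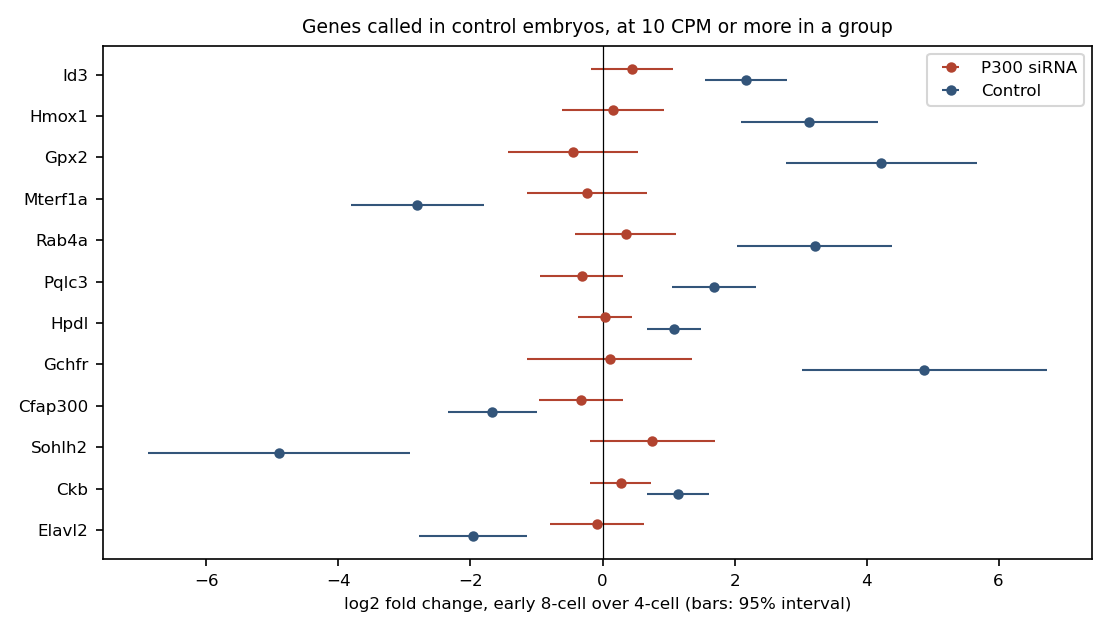
Log2 fold change, early 8-cell over 4-cell, with its 95% interval, in P300 siRNA embryos (red) and control embryos (blue) for 12 genes called in control embryos at 10 CPM or more in a group and not at 0 in both libraries of one. The siRNA intervals include 0 for all 12, and each control value lies outside the siRNA interval of its gene. The genes were picked on their control values, which favours this, and the siRNA interval leaves out the error of the control value. No gene passed edgeR's test of the difference between the steps.

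Across the 6830 genes at 10 CPM or more in a stage of both kinds of embryo, the siRNA and control steps had a Pearson correlation of 0.008 and a Spearman correlation of 0.03, as a description over genes that are not independent and share no library between the axes. How far differences between libraries of the same stage hold these correlations near 0 was not tested. Of the 182 genes with a control step of 1 log2 unit or more, 98 had the same sign in siRNA embryos and 3 reached 1 unit there too. Thinned to 7173716 counts each, 15366 and 15040 genes were detected in siRNA early 8-cell libraries, against 14884 and 14970 in siRNA 4-cell libraries, and 14672 and 14046 in control early 8-cell, against 14279 and 14473 in control 4-cell libraries.

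The most abundant genes of the 4 siRNA libraries by CPM were Rn45s, Timd2, H3f3b, Dppa3 and Rpl41. Rn45s, the ribosomal RNA precursor, had 21345 and 9278 CPM at the early 8-cell stage, against 11581 and 9090 CPM at the 4-cell stage. Early 8-cell replicate 1 stands apart from the other 3 libraries in it. Timd2, a receptor for ferritin, had 4650 and 4409 CPM, against 8600 and 4326 CPM, and H3f3b, a gene of the histone variant H3.3, had 5157 and 5202 CPM, against 6089 and 5317 CPM. Markers of other cells were close to absent, with 5 of 15 cumulus and granulosa, 5 of 9 fibroblast, 10 of 11 blood cell and 7 of 8 sperm markers below the filter and 0 called. Amhr2, a granulosa receptor gene, was the one at 10 CPM or more, with 44.3 and 40.8 CPM, against 43.1 and 32.7 CPM, and controls had 44.4 and 51.2 CPM, against 47.8 and 60.5 CPM. Postn and Prm2, the most abundant tested members of the fibroblast and sperm lists, did not exceed 2.66 CPM in a siRNA library. In whole embryos fewer cells expressing a gene and less RNA per cell cannot be told apart.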

How the data were processed

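Counts per gene were deposited by the authors without normalisation, and FPKM values were deposited by the authors in a second table, per the file headers. Per the submitters' processing notes the build was mm9, and the tools listed are HISAT2 2.2.1 and Cufflinks 2.2, besides cutadapt 4.1 and bcl2fastq 2.20.0.422; settings and strandedness are not given in the sources used here. Libraries were grouped by label, and the members and gene lists were chosen with earlier results of these data known.

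All 20 libraries were fitted in 1 model with 1 coefficient per group in edgeR 4.0.16 (R 4.3.3), after the default low-count filter and TMM scaling; each contrast used the quasi-likelihood F test (two-sided), and genes were called where the Benjamini-Hochberg adjusted p lay under 0.05. CPM values use TMM-scaled sizes, and ratios of single libraries a pseudocount of 1. The minimum of 10 CPM is on the mean of a group, so a gene can reach it through 1 high library. The SE is the fold change over the square root of F. The tests were also run on simulated data with known answers.

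The planned fit used every row. Its calls showed the rows that disagree between column sets, and the rule that leaves out 828 rows (hyphen-dependent order, or a log2 length difference over 0.3 from counts of 20 or more and FPKM of 0.5 or more) was chosen after those calls were seen. It uses symbols, counts and FPKM over all stages and treatments. Restoring the rows was tried and left aside, as no single order matched all of them. The rows left out hold 0.673% to 0.690% of the counts of the 4 siRNA libraries. Coordinates and sequences are not used here.

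Named genes were Ep300, the largest called rises and falls (none), the most abundant tested member of each list without a call, and the most abundant genes. One gene that this rule names is not reported here. Others are said to be named after their values were seen. The control-called genes and the maternal and embryo marker genes shown beyond this rule were also added after their values were seen. Alternatives were DESeq2 1.42.0 (size factors, Wald test), limma 3.58.1 on log2(FPKM + 1) with at least 1 FPKM in 2 libraries, no filter, a fold change of at least 1 log2 unit besides the p, the compared libraries on their own, a replicate block and each library left out. Added after seeing the data were the rows as deposited, the siRNA replicate 1 libraries alone, and limma without the FPKM column of control early 8-cell replicate 2.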

Additional observations from a re-analysis of the deposited data

How the results depend on the processing

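Between the stages in siRNA embryos, 0 genes were called with DESeq2 size factors, the DESeq2 Wald test, limma on FPKM, a minimum fold change and only the 4 libraries. Without a filter there were 52 calls, with the rows as deposited 82, with the replicate 1 libraries alone 2, and leaving out each library in turn gave 0 to 3: Nav1, Tent5c and Gm9376 without early 8-cell replicate 2, and Pdpn without 4-cell replicate 2, where the lone library is assumed to vary like the other groups. Of 118 named fold changes, 52 moved by more than their SE with replicate 1 alone and 31 to 42 when a single siRNA library was left out, and 5 were called without a filter, in the same direction.

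Control embryos had 32 calls, and 536 without a filter, 245 with DESeq2, 5 with limma, 4 with limma without the deviating FPKM column, 0 with only their own libraries, 187 with the rows as deposited and 2 to 785 when a library was left out. The difference of the steps had 0 calls, and 279 without a filter, 34 with DESeq2, 4 with siRNA replicate 1 alone and 0 to 191 when a library was left out. The cause was not tested.

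With a replicate block there were 0, 29 and 0 calls for siRNA embryos, control embryos and the difference. Replicate numbers are not said to pair libraries. Deviations of same-numbered siRNA libraries of the 2 stages correlated at 0.486, over 2 pairs. A deviation is replicate 1 minus replicate 2, so the likeness of the replicate 2 libraries can by itself raise this value.
How far depth limits the fold changes was not tested; for 74.4% of the genes at 10 CPM or more the siRNA interval lay within 1 log2 unit.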

Other observations

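The FPKM column of control early 8-cell replicate 2 did not follow its count column. Over 7134 genes, deviations from the gene means correlated at 0.356 between its counts and its FPKM, where the 4 siRNA libraries gave 0.954 to 0.969. Implied transcript lengths leave that column out. The FPKM alternative for control embryos draws on it, except where it is said to be left out, and its origin was not tested.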
